A study of Mus musculus with 8 samples.

Results

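The serine/arginine-rich (SR) and heterogeneous nuclear ribonucleoprotein (hnRNP) splicing factors were described in ribosome-bound RNA of mouse lung endothelial cells. All gene symbols that begin with Srsf and a digit, or with Hnrnp, were taken, which gave 31 genes, 11 SR and 20 hnRNP, of the 23238 symbols measured. The 8 libraries came from C57BL/6J mice. The 4 control libraries came from mice with Cdh5-CreERT2 and RPL22tm1.1Psam kept in room air, and the 4 Sox17-deleted hypoxic libraries from mice that also carried Sox17fl/fl and were kept in hypoxia. Both groups therefore carried the Cre driver and the ribosome tag. Mice of both groups received 2 mg of tamoxifen for 5 days at 8 weeks of age, and the exposure began at 10 weeks and lasted 3 weeks. Genotype and oxygen changed together, so their effects cannot be told apart. Cdh5-CreERT2 drives recombination from the VE-cadherin promoter, and RPL22tm1.1Psam gives recombined cells a haemagglutinin-tagged ribosomal protein by which their ribosomes, with the bound messages, are pulled from whole lung. Libraries of the control group are called control 1 to 4 and those of the other group deleted 1 to 4. The labels do not state whether 1 animal or several gave a library, so the spread between libraries may be partly technical.

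SR proteins bind exonic enhancers of pre-mRNA through RNA recognition motifs and recruit the splicing machinery through a domain rich in arginine-serine repeats. hnRNP proteins coat nascent transcripts, often act as silencers at the same exons, and also take part in export, stability and translation of messages. Many genes of both families regulate their own messages by splicing in exons that lead to nonsense-mediated decay, in endothelial cells as in most other cells.

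A level is given as counts-per-million (CPM) of the total count of its library. The libraries were made from the 3′ ends of polyadenylated transcripts, so a long transcript gives no more tags than a short one. CPM were therefore not divided by length, and levels of different genes can be set side by side as tag levels. The tags do not show which exons a message holds. A log2 fold change is Sox17-deleted hypoxia minus control normoxia, fitted over all genes with edgeR's quasi-likelihood test, with its standard error (SE). A gene counted as changed at a Benjamini-Hochberg adjusted p under 0.05 over all 8282 genes that passed edgeR's filter on low counts. Of the 31 genes, 28 passed the filter, 10 SR and 18 hnRNP, and Srsf12, Hnrnpa1 and Hnrnpul1 did not.

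Hnrnpab was the sole tested gene of both families whose libraries did not overlap between the groups, and Srsf11 had the lowest p among the SR genes, so the start regions of both are shown. The sequences are from RefSeq on GRCm38.p6, from 250 bases before to 50 after an annotated start, on the minus strand of each chromosome and written 5′ to 3′. The Hnrnpab window is chr11:51606832-51607131 and the Srsf11 window, the upstream one of 2, is chr3:158036557-158036856. Capitals mark ACGTG, the core of the element that hypoxia-inducible factors bind, found once in the Hnrnpab window and not in either Srsf11 window.
Hnrnpab: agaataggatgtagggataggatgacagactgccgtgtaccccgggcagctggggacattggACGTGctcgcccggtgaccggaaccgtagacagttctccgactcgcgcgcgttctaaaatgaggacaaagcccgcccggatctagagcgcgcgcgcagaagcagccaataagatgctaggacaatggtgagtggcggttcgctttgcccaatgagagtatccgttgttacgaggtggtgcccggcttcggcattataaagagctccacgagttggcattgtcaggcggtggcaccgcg
Srsf11: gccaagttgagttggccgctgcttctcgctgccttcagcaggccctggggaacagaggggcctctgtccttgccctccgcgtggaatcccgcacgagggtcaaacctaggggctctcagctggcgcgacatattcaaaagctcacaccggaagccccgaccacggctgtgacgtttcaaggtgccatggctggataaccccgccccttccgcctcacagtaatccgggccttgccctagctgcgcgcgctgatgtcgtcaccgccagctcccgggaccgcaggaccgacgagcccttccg

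Of the 31 genes, 29 matched a RefSeq start, with 41 windows in all. ACGTG, on either strand and with overlaps counted, was in 14 of the 41 windows (34.1%) against 19.6% of all 32851 mouse windows of the same length. These windows were also rich in G and C, with a median of 68.3% against 52.7% of bases, and held a median of 31 CG dinucleotides against 7. ATTGTT, a core recognised by SOX proteins, was searched in the same way and was in 1 of 41 windows (2.44%), that of Hnrnph1, against 10.7% of all windows. Among the genes with ACGTG in any window, 11 were tested, of which 7 had a log2 fold change above 0 and 4 below. Among those without it, 5 of 15 were above 0 and 10 below. Such a match describes the letters alone, and the base composition of the windows moves with it, whose part was not tested.

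The libraries held between 7000313 and 12913304 counts, so that 3 counts, the level taken as the floor, corresponded to 0.232 to 0.429 CPM. Control libraries held counts for 9821 to 10429 genes and the others for 8019 to 8708. Sox17 was at 205.5 to 290.7 CPM in control and 0.857 to 36.6 CPM in Sox17-deleted libraries, and the labels do not state whether its tags lie in the deleted part. The 14 pan-endothelial markers were all detected, and 6 of 14 had a fold change above 0. They summed to 12610 to 14080 CPM in control and 8495 to 13900 CPM in Sox17-deleted libraries. For 2 of the 14 the Sox17-deleted libraries all lay below every control library, beside 4.96% of all tested genes. These libraries all lay above for 0 of the 14, beside 1.63%. No marker of other lung cells was called by edgeR, but the summed levels of alveolar type 2, club and ciliated, and fibroblast markers did not overlap between the groups. The part of other cells in the results that follow was not tested. Alveolar type 2 markers summed to 914.4 to 1240 CPM in control and 1958 to 4041 CPM in Sox17-deleted libraries, with 9 of 10 above 0, and club and ciliated markers to 1736 to 2648 and 3831 to 5968 CPM, with 5 of 5 tested above 0. Fibroblast markers summed to 596.5 to 753.5 and 793.4 to 9156 CPM, with 5 of 8 tested above 0 and Tcf21 at 0 in all Sox17-deleted libraries. Leukocyte markers summed to 77.6 to 167.9 and 126.6 to 487.9 CPM, with 4 of 4 tested above 0 and Cd3e and Itgam at 0 in those libraries. Alveolar type 1 markers (4 of 5 above 0) summed to 1117 to 1457 and 1100 to 1403 CPM, and erythroid markers (0 of 4 above 0, Slc4a1 at 0 in all Sox17-deleted libraries) to 1325 to 2434 and 222.2 to 2839 CPM. Smooth muscle and pericyte markers (2 of 4 above 0, Cspg4 and Notch3 at 0 in all Sox17-deleted libraries) summed to 60.0 to 144.5 and 27.9 to 544.4 CPM, and cardiomyocyte markers (1 of 3 above 0) to 13.0 to 47.7 and 39.7 to 338.9 CPM.

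No gene of either family passed the test between the groups. In such bulk samples, fewer cells of a type and less RNA per cell cannot be told apart. The hnRNP genes together made up 3883 ± 285.2 CPM (SD, n = 4) in control and 3984 ± 889.1 CPM (SD, n = 4) in Sox17-deleted libraries. The SR genes together made up 965.8 ± 218.5 CPM (SD, n = 4) and 1151 ± 432.8 CPM (SD, n = 4). For the SR sum, the control libraries were at 793.1, 1281, 938.3 and 850.8 CPM and the others at 840.9, 1596, 723.7 and 1443 CPM. The 2 highest SR sums were thus deleted 2 and deleted 4 and the lowest was deleted 3, so that the groups overlapped. For the hnRNP sum, the control libraries were at 3569, 3976, 3755 and 4230 CPM and the others at 3649, 4236, 2978 and 5072 CPM. Again deleted 3 was lowest and deleted 4 highest, and the control values lay between them. The ratio of the hnRNP to the SR sum was 4.14 ± 0.80 (SD, n = 4) in control and 3.66 ± 0.75 (SD, n = 4) in Sox17-deleted libraries, a difference smaller than 1 SD.

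**Figure D1:**
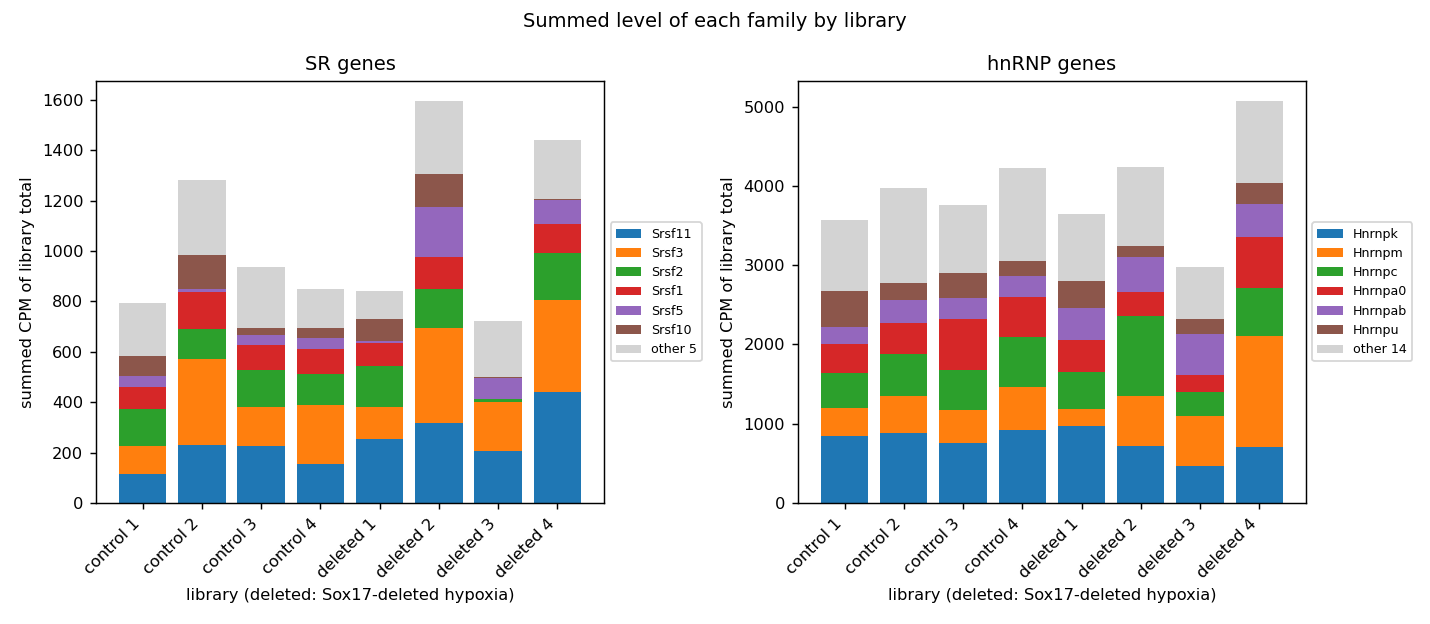
Stacked bars give the summed level of the SR genes (left) and hnRNP genes (right) in each library, in CPM of the library total, with the 6 highest genes of each family in colour and the rest in grey. The hnRNP sum was between 3569 and 4230 CPM in control libraries and between 2978 and 5072 CPM in Sox17-deleted libraries.

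At an adjusted p under 0.05 edgeR called no gene of the 28, and none of the 8282 genes tested (0.0%). DESeq2, fitted without that filter to 14071 genes and all 31 members, called Hnrnpab and 473 genes in all. On the 8282 genes limma-voom called no member and 44 genes. At an unadjusted p under 0.05 there was 1 member, Hnrnpab, beside 5.12% of all tested genes. The groups did not overlap for 1 member with the higher values in Sox17-deleted libraries, beside 1.63% of all tested genes, and for 0 members with the lower values, beside 4.96%. Among the 14 members that averaged at least 100 CPM, these counts were 1 and 0, beside 4.14% and 4.43% of the 2052 tested genes of such levels. A log2 fold change above 0 was found for 13 of 28 members, beside 49.6% of all tested genes, and for 7 of the 14 members of at least 100 CPM, beside 54.0%. With 28 members, counts of 1 and 0 lie near these backgrounds. The median log2 fold change was 0.12 over the 10 SR genes, 5 of them above 0, and -0.06 over the 18 hnRNP genes, 8 of them above 0, beside -0.01 over all tested genes. Neither sign held in every alternative, but the median over all tested genes moved as well. With a replicate block the SR median was -0.06 over the same 10 genes, beside -0.57 over all tested genes. With RLE factors the hnRNP median was 0.06, beside 0.08 over all tested genes. With DESeq2 the SR median was -0.02, but over 11 genes, Srsf12 among them. A log2 fold change beyond 1 in either direction was reached by 4 of 28 members (14.3%), beside 35.0% of all tested genes. Among tested genes at 100 CPM or more the share was 13.1%, and for the 14 members of such levels it was 7.14%, or 1 gene, Hnrnph3.

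**Figure D2:**
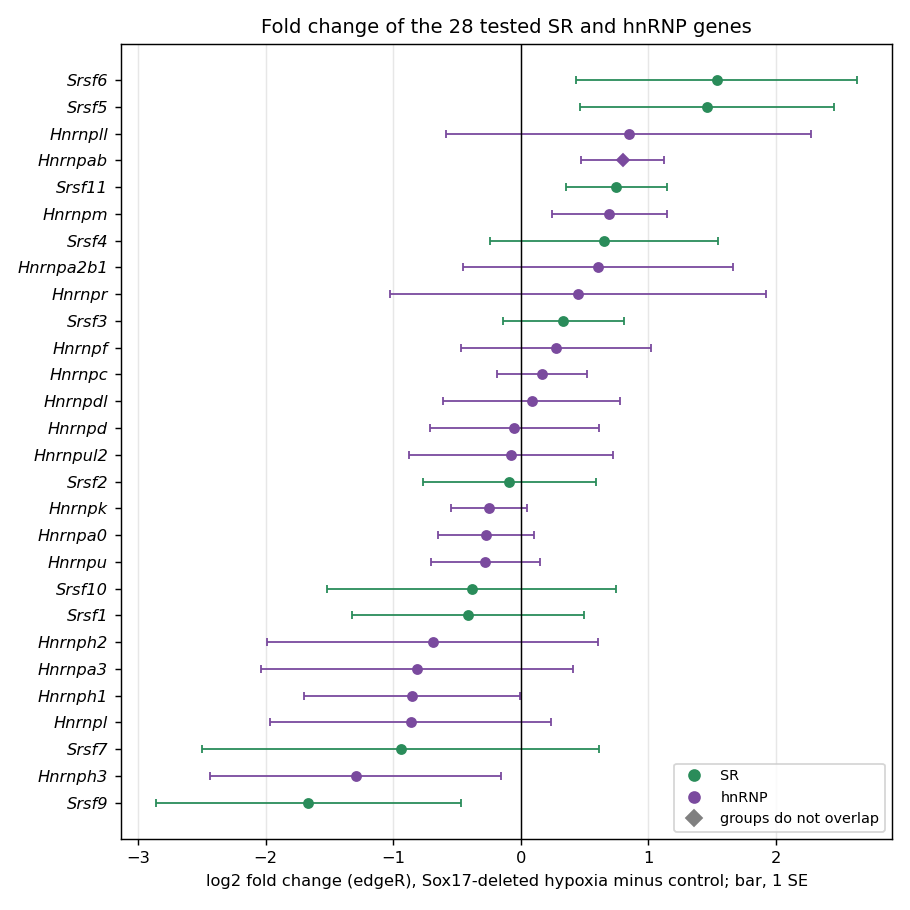
Points give the edgeR log2 fold change, Sox17-deleted hypoxia minus control normoxia, of each of the 28 tested SR and hnRNP genes, with bars of 1 SE, in order of size. The SE ranged from 0.30 to 1.55, and the diamond marks Hnrnpab, whose groups did not overlap.

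Hnrnpab, a member of the A/B type of hnRNPs that binds RNA with a pair of RNA recognition motifs and takes part in transport and translation of messages, was the member with the clearest separation. Its level was 218.0, 292.5, 264.8 and 268.7 CPM in control libraries and 396.1, 446.0, 519.0 and 422.0 CPM in Sox17-deleted libraries. All 4 Sox17-deleted libraries lay above all 4 control libraries, and the gap between the nearest, control 2 and deleted 1, was wider than the SD of either group. The means were 261.0 ± 31.1 CPM (SD, n = 4) and 445.8 ± 52.9 CPM (SD, n = 4), and the coefficient of variation was 11.9% in both groups. Its log2 fold change in edgeR was 0.80 (SE 0.32), at an unadjusted p of 0.0271 and an adjusted p of 0.785. The call depended on the tool, since DESeq2 gave a log2 fold change of 0.90 and an adjusted p of 0.0370, and over all alternatives the adjusted p lay between 0.0370 and 1.00. Its share of the hnRNP sum was 6.72 ± 0.58% (SD, n = 4) in control and 11.78 ± 3.93% (SD, n = 4) in Sox17-deleted libraries, highest in deleted 3 at 17.43%. In the annotation (GENCODE M21, GRCm38) Hnrnpab, ENSMUSG00000020358.17, lies on the minus strand of chromosome 11 from 51600100 to 51606847, and Phykpl overlaps its 3′ end on the opposite strand. The labels do not state whether counting used strand. Phykpl had 12, 2, 797 and 100 counts in control and 40, 0, 0 and 0 counts in Sox17-deleted libraries against 2304 to 5115 counts for Hnrnpab.

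Other A/B-type and D-type hnRNPs did not show this separation. Hnrnpa0, which binds AU-rich elements, was at 364.0, 388.3, 636.5 and 502.9 CPM in control and 408.6, 293.5, 209.6 and 645.4 CPM in Sox17-deleted libraries. Deleted 3 was lowest and deleted 4 highest, and the log2 fold change was -0.27 (SE 0.37). Hnrnpd, also known as AUF1 and a factor in decay of AU-rich messages, was at 79.1, 179.1, 51.0 and 157.9 CPM in control and 54.8, 88.8, 216.1 and 74.4 CPM in Sox17-deleted libraries. Its relative Hnrnpdl was at 89.2, 192.2, 45.5 and 57.1 CPM and at 70.6, 162.0, 42.1 and 143.8 CPM. Both genes overlapped between the groups, with log2 fold changes of -0.05 (SE 0.66) and 0.09 (SE 0.69). The 2 genes are neighbours on chromosome 5, 54.6 kb apart, but deleted 3 was the highest library of all for Hnrnpd and the lowest for Hnrnpdl. Hnrnpa2b1, which sorts messages and microRNAs, ranged from 27.2 to 60.9 CPM in control and from 7.30 to 109.0 CPM in Sox17-deleted libraries. Hnrnpa3 ranged from 19.97 to 102.2 CPM and from 1.86 to 54.9 CPM. The Hnrnpa3 level is uncertain, since 27 other genes, 24 of them pseudogenes, match its last 300 bases with at least 95% identity over at least 100 bases.

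Hnrnpa1, the best known exon silencer of the family, was nearly absent from the tables. It had 0, 1, 200 and 117 counts in control libraries and 0 in each Sox17-deleted library. Hnrnpul1, a nuclear scaffold-type hnRNP, had 1, 143, 101 and 0 counts in control libraries and likewise 0 in each of the others. Each gene was thus detected above the floor in 2 of 4 control libraries only, and neither entered the edgeR test. Without the filter on low counts the edgeR adjusted p was 0.360 for both, and DESeq2 gave 0.141 and 0.159. Of Hnrnpa1, 9 other genes, all of them pseudogenes, match a stretch of at least 300 bases with at least 95% identity. In its last 300 bases no other gene matches at that identity over at least 100 bases. The labels do not state how reads with several matches were counted.

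The most abundant members were Hnrnpk, Hnrnpm and Hnrnpc. Hnrnpk, which binds C-rich single strands with its KH domains, was at 849.5, 884.6, 756.9 and 926.8 CPM in control and 972.3, 721.9, 463.8 and 710.8 CPM in Sox17-deleted libraries. Deleted 1 was highest of all 8 libraries and the other 3 of its group were lower than every control library. The log2 fold change was -0.25 (SE 0.30, adjusted p of 0.9997 by edgeR), and the mean share of the hnRNP sum was 22.03 ± 1.49% (SD, n = 4) in control and 18.32 ± 5.69% (SD, n = 4) in Sox17-deleted libraries. Hnrnpc, which binds runs of uridine and keeps cryptic exons out of messages, was at 437.7, 529.0, 507.1 and 634.1 CPM in control and 468.4, 1015, 305.3 and 596.6 CPM in Sox17-deleted libraries. The control values lay within the range set by deleted 3 and deleted 2, and the log2 fold change of 0.17 (SE 0.35) became -0.15 without deleted 2.

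Hnrnpm, a splicing regulator that binds GU-rich RNA, was at 353.5, 469.2, 416.9 and 533.7 CPM in control and 208.9, 626.4, 630.5 and 1400 CPM in Sox17-deleted libraries. Here deleted 1 was lowest of all 8 libraries and the other 3 of its group were higher than every control library, the reverse of the pattern for Hnrnpk. The means were 443.3 ± 76.6 CPM (SD, n = 4) and 716.6 ± 497.0 CPM (SD, n = 4), with a log2 fold change of 0.70 (SE 0.45, adjusted p of 0.9997 by edgeR). Over the alternatives the log2 fold change of Hnrnpm lay between 0.19, without deleted 4, and 1.03, without deleted 1. Without deleted 1 the adjusted p by edgeR was 0.335 for Hnrnpm and also for Hnrnpab, and at least as high for every other member. The unadjusted p by edgeR was then 0.0142 for Hnrnpm and 0.0246 for Hnrnpab.

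Among the U-type hnRNPs, which carry a SAP domain that binds DNA, Hnrnpu was at 449.3, 209.7, 313.6 and 188.9 CPM in control and 349.5, 141.4, 195.3 and 259.7 CPM in Sox17-deleted libraries. Hnrnpul2 was at 184.4, 54.3, 57.0 and 204.0 CPM and at 214.7, 109.2, 130.1 and 8.96 CPM. The groups overlapped for both, with log2 fold changes of -0.28 (SE 0.43) and -0.07 (SE 0.80), and the low value of Hnrnpul2 was in deleted 4. AC129217.1, annotated on the same strand, overlaps the last 300 bases of Hnrnpul2 and was not analysed here. Cox20 overlaps the 3′ end of Hnrnpu but had between 1 and 366 counts against 1336 to 4748 counts for Hnrnpu.

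The F/H-type hnRNPs bind runs of guanines with quasi-RNA recognition motifs. Hnrnpf was at 102.5, 183.0, 152.2 and 163.4 CPM in control and 187.1, 143.0, 7.71 and 404.6 CPM in Sox17-deleted libraries. Hnrnph3 was at 104.5, 180.2, 198.4 and 205.0 CPM in control and 57.5, 227.7, 0.571 and 3.41 CPM in Sox17-deleted libraries. Deleted 3 was low for both genes, while deleted 4 was the highest library for Hnrnpf and the second lowest for Hnrnph3, with 38 counts. The log2 fold changes were 0.28 (SE 0.75) and -1.30 (SE 1.14), and without deleted 4 that of Hnrnpf was -0.42. That of Hnrnph3 was -3.04 without deleted 2 and -0.89 without deleted 3, and -3.42 with limma-voom. Rufy2 overlaps the 3′ end of Hnrnph3 on the opposite strand, and how tags of the overlap were assigned was not stated in the labels. The 2 genes had the same count in control 3 (2309) and in deleted 4 (38). The Rufy2 count was the higher in the other 6 libraries. In proportion the excess was largest in deleted 3, where Rufy2 had 489 counts and Hnrnph3 had 4. Hnrnph1 ranged from 47.3 to 123.8 CPM in control and 17.9 to 72.6 CPM in Sox17-deleted libraries, and the X-linked Hnrnph2 from 8.85 to 67.0 CPM and 3.49 to 48.9 CPM. For Hnrnpf, 9 other genes match at least 300 bases at 95% identity or more, 6 of them pseudogenes, though none in its last 300 bases.

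The remaining hnRNPs stood under 100 CPM. Hnrnpl, which binds CA repeats, ranged from 66.8 to 90.1 CPM in control and from 0.571 CPM, in deleted 3, to 76.4 CPM in Sox17-deleted libraries. Its relative Hnrnpll, known for the switch of CD45 exons in lymphocytes, ranged from 4.63 to 31.3 CPM and from 25.9 to 67.1 CPM. Hnrnpr, which binds the 7SK RNA, ranged from 0.0904 to 60.2 CPM and from 16.8 to 69.3 CPM. All 3 overlapped between the groups, and the lowest control value of Hnrnpr, in control 2, was under the floor.

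**Figure D3:**
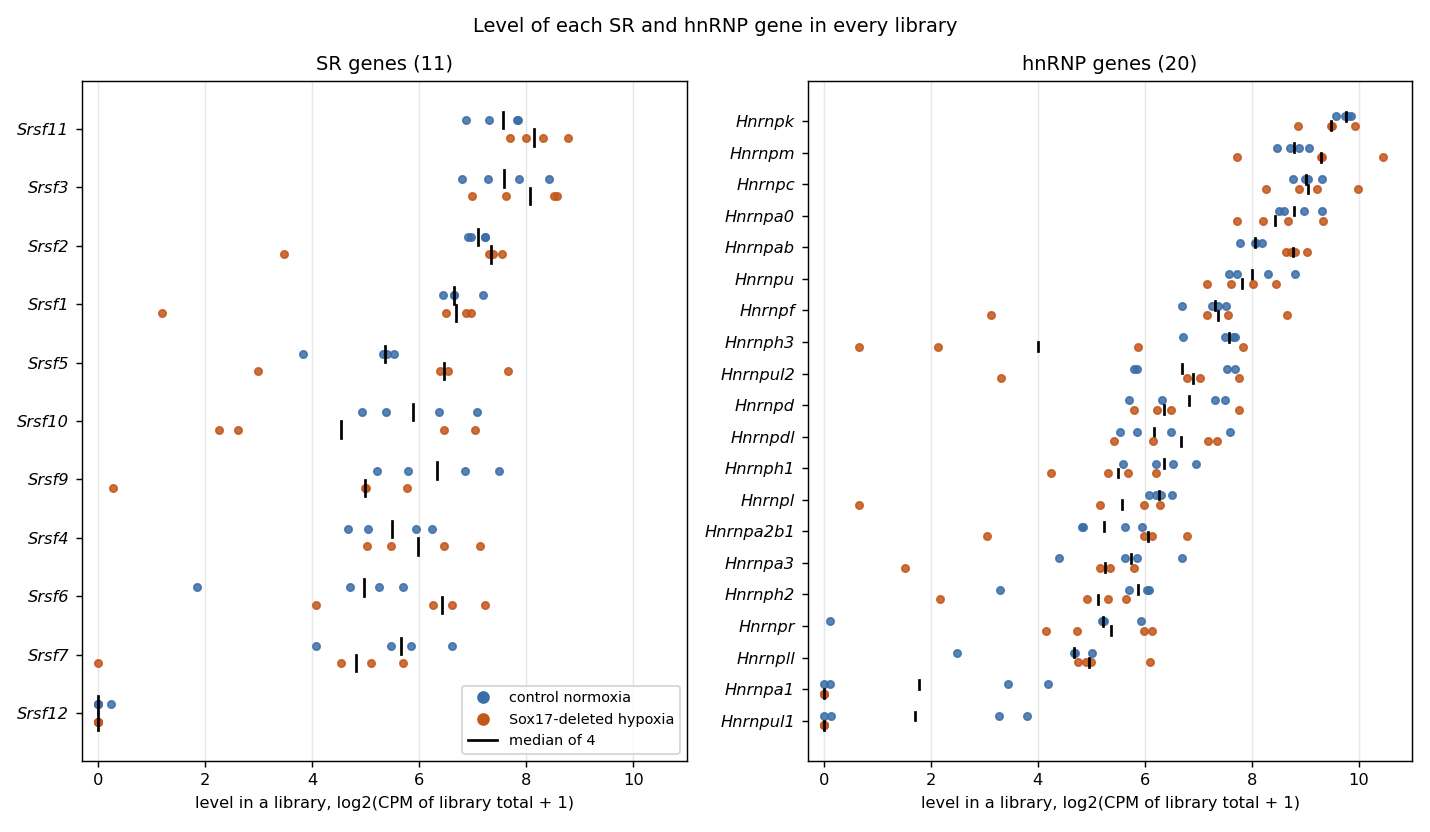
Points give the level of each of the 11 SR genes (left) and 20 hnRNP genes (right) in each of 4 control (blue) and 4 Sox17-deleted hypoxic libraries (orange), as log2(CPM of the library total + 1), with the median of each group as a black line. Hnrnpab is the only gene with all orange points above all blue points, and single low orange points, such as Srsf2 at 10.1 CPM, recur among both families.

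Among the SR genes, Srsf11, Srsf3 and Srsf2 averaged at least 100 CPM. Srsf11, an SR-related factor known for its part in the inclusion of neuronal microexons, was at 115.8, 228.4, 224.7 and 156.3 CPM in control and 254.0, 316.5, 207.4 and 439.4 CPM in Sox17-deleted libraries. Of the latter, 3 of 4 lay above every control library, and deleted 3 lay between control 4 and control 3. The means were 181.3 ± 54.8 CPM (SD, n = 4) and 304.3 ± 100.5 CPM (SD, n = 4), and the log2 fold change came to 0.75 (SE 0.39), at an unadjusted p of 0.0763 and an adjusted p of 0.9997 by edgeR. Over the alternatives it lay between 0.55 and 0.90, with adjusted p values from 0.217 to 0.9999. Srsf11 made up 18.69 ± 3.88% (SD, n = 4) of the SR sum in control and 27.29 ± 5.03% (SD, n = 4) in Sox17-deleted libraries. In GENCODE M21 the gene, ENSMUSG00000055436.18, lies on the minus strand of chromosome 3 from 158010473 to 158036639.

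Srsf3, the smallest classical SR protein and an adaptor for export and 3′ end choice, was at 109.8, 342.7, 155.5 and 231.6 CPM in control and 126.1, 378.8, 194.7 and 367.7 CPM in Sox17-deleted libraries. Its groups overlapped, with a log2 fold change of 0.34 (SE 0.47). Srsf2, also known as SC35 and a marker of nuclear speckles, was at 148.9, 119.4, 148.5 and 123.3 CPM in control and 165.2, 156.0, 10.1 and 185.8 CPM in Sox17-deleted libraries. Deleted 3 was far below all others, and the other 3 of its group lay above every control library. With all libraries the log2 fold change of Srsf2 was -0.09 (SE 0.68), and without deleted 3 it was 0.29. Mettl23 overlaps the last 300 bases of Srsf2 on the opposite strand, and had 308, 299, 229 and 122 counts in control and 0, 18, 0 and 0 counts in Sox17-deleted libraries.

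Srsf5, Srsf6 and Srsf9 were singled out after their values were seen, since their log2 fold changes were the largest of the SR genes. Srsf5, a classical SR protein with a pair of RNA recognition motifs, was at 41.3, 13.2, 38.8 and 45.3 CPM in control and 6.97, 201.5, 82.3 and 92.2 CPM in Sox17-deleted libraries. Srsf6, a close relative of Srsf5 and Srsf4, was at 50.8, 2.62, 37.0 and 25.1 CPM in control and 15.8, 148.1, 75.3 and 97.0 CPM in Sox17-deleted libraries. For both genes deleted 2, 3 and 4 lay above every control library while deleted 1 did not. The log2 fold changes were 1.46 (SE 1.00) for Srsf5 and 1.54 (SE 1.10) for Srsf6, each with an adjusted p of 0.9997 by edgeR. Srsf9, a repressor as well as an activator of exons, was at 36.2, 178.1, 115.4 and 54.4 CPM in control and 31.0, 0.212, 53.3 and 30.7 CPM in Sox17-deleted libraries. Only deleted 3 reached into the control range, deleted 2 was under the floor, and the log2 fold change was -1.67 (SE 1.20). In RefSeq Gatc overlaps the 3′ end of Srsf9, with 0 to 717 counts in a library against 2 to 1971 for Srsf9.

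The other SR genes overlapped between the groups. Srsf1, known as ASF/SF2 and the founding member of the family, ranged from 86.6 to 145.2 CPM in control and from 1.29 CPM, in deleted 3, to 124.3 CPM in Sox17-deleted libraries. Srsf4 ranged from 24.6 to 74.1 CPM and from 31.6 to 139.9 CPM, and Srsf7, an export adaptor with a zinc knuckle, from 15.8 to 96.8 CPM and from 0 to 50.9 CPM. Srsf10, which turns into a splicing repressor when dephosphorylated, ranged from 29.5 to 134.2 CPM and from 3.76 to 130.4 CPM. Srsf12 had 2 counts in control 1 and 0 in every other library, which is under the floor. Srsf4 shares its 3′ end with Gm12992 on the opposite strand, and the 2 genes had the same count in 4 of 8 libraries (260 in control 1, 862 in control 3, 378 in control 4 and 408 in deleted 1). In the other 4 they differed, with 672 and 806 counts in control 2, 1322 and 958 in deleted 2, 303 and 272 in deleted 3, and 978 and 388 in deleted 4 for Srsf4 and Gm12992.

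Single libraries stood low for some members and high for others, as deleted 4 did for Hnrnpm at 1400 CPM. The part of such values in the spread was not tested. The coefficient of variation was larger in the Sox17-deleted group for 21 of 28 members (75.0%), beside 79.6% of all tested genes. Its median over the members was 41.5% in control and 65.1% in Sox17-deleted libraries, beside 58.6% and 96.1% over all tested genes. At 100 CPM or more the medians were close, at 26.6% and 52.9% over 14 members, beside 27.6% and 51.3% over 2052 tested genes. In deleted 3, the library with the fewest counts, 7 of 28 members (25.0%) were more than 10 times below the median of the other 7 libraries, beside 27.1% of tested genes that averaged at least 20 CPM. These were Srsf1, Srsf2, Srsf10, Hnrnpa3, Hnrnpf, Hnrnph3 and Hnrnpl. In deleted 1, 2 and 4 the members so low were 1, 2 and 3 of 28 (3.57%, 7.14% and 10.7%), beside 15.3%, 18.5% and 14.7% of those genes. In control libraries there were 2, Hnrnpr and Srsf6, both in control 2. In each Sox17-deleted library the members' share was below that of all tested genes of at least 20 CPM, a difference that was not tested. In deleted 3 the shares were close, at 25.0% and 27.1%. Levels were not matched, since 14 of 28 members averaged at least 100 CPM, beside 2052 of those 6263 genes.

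**Figure D4:**
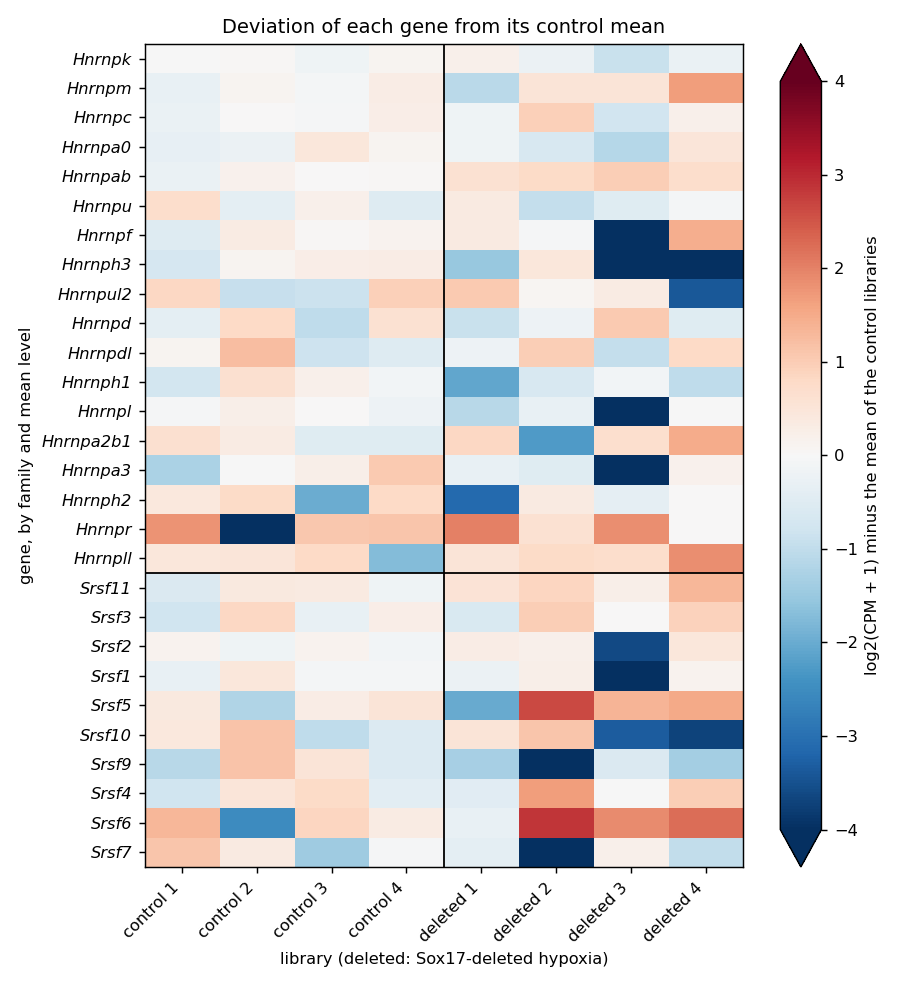
Colours give, for each of the 28 tested genes (hnRNP above the line, SR below) and each library, log2(CPM + 1) minus the mean of the 4 control libraries, with the scale ending at 4 in either direction. Dark blue cells, far below the control mean, stand in different genes from library to library, and 7 members were more than 10 times below the other libraries' median in deleted 3.

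Partners of the 2 families were counted in 7 lists of splicing genes, of which 115 of 131 genes were tested. None was called by edgeR, while DESeq2 called Clk3 and Ppih among the genes named here. DESeq2 called 473 of 14071 genes in all, and its calls among the unnamed list genes are not given here. In edgeR, 59 of the 115 had a log2 fold change above 0 and 56 below, and the median was 0.01. Sox17-deleted libraries all lay above every control library for 2 of these 115, Clk3 and Lsm7, beside 1.63% of all tested genes. They all lay below for 2, Ppih and Ptbp1, beside 4.96%. SR-related proteins were above 0 in 9 of 14, with a median of 0.19. The most abundant, the speckle proteins Son and Srrm2, were at 758.5 ± 129.2 and 544.7 ± 163.2 CPM (SD, n = 4) in control and 592.3 ± 178.2 and 638.9 ± 200.3 CPM (SD, n = 4) in Sox17-deleted libraries, and both overlapped between the groups. Luc7l3, a U1-associated protein named here after its values were seen, was at 131.2, 99.8, 332.5 and 175.3 CPM in control and 420.9, 264.0, 278.7 and 482.9 CPM in Sox17-deleted libraries. Control 3 alone reached into the range of the other group, and the log2 fold change was 1.00 (SE 0.43, adjusted p of 0.865 by edgeR).

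Kinases and importers of SR proteins were above 0 in 6 of 10 tested, with a median of 0.43, and Srpk3 was at 0 in every library. Clk3, a nuclear kinase that phosphorylates the arginine-serine domain and releases SR proteins from speckles, was at 43.3, 10.8, 24.1 and 34.0 CPM in control and 175.7, 101.4, 196.0 and 66.7 CPM in Sox17-deleted libraries. Every Sox17-deleted library lay above every control library. Its log2 fold change was 2.31 (SE 0.77), at an unadjusted p of 0.0096 and an adjusted p of 0.468 by edgeR and 0.00778 by DESeq2, and over the alternatives the adjusted p lay between 0.00778 and 0.900. Srpk2, the most abundant SR kinase here, was at 160.4 ± 79.9 CPM (SD, n = 4) in control and 105.4 ± 38.1 CPM (SD, n = 4) in Sox17-deleted libraries.

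Proteins of the hnRNP class under other symbols were above 0 in 5 of 13, with a median of -0.36. Pcbp1, also called hnRNP E1, was at 460.0 ± 59.4 CPM (SD, n = 4) in control and 311.8 ± 143.1 CPM (SD, n = 4) in Sox17-deleted libraries, with a log2 fold change of -0.56 (SE 0.36). Ptbp1, also called hnRNP I, a repressor that binds pyrimidine tracts, was named after its values were seen. It was at 54.7, 87.9, 105.8 and 65.1 CPM in control and 0, 28.6, 23.9 and 10.8 CPM in Sox17-deleted libraries, so that the groups did not overlap. Its log2 fold change came to -2.28 (SE 1.47), at an adjusted p of 0.9997 by edgeR.

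In the spliceosome itself, proteins of U1, U2 and the Sm ring were above 0 in 13 of 25, with a median of 0.04. Sf3b2 and U2af2, which recognise the branch point region and the pyrimidine tract, had log2 fold changes of 0.56 (SE 0.31) and 0.32 (SE 0.33). Proteins of U4/U6.U5 and the Prp19 complex were above 0 in 11 of 18, with a median of 0.40, also with Ppih set at its bound. The most abundant of them, Prpf8 at the catalytic centre and Cdc5l, had log2 fold changes of 0.43 (SE 0.48) and 0.46 (SE 0.49). Ppih, a cyclophilin of the U4/U6.U5 particle, was at 9.65, 12.8, 21.7 and 21.5 CPM in control and had no count in any Sox17-deleted library. Against a floor of 3 counts per library this was at least 52.7-fold lower, with an adjusted p of 0.346 by edgeR and 6.42e-05 by DESeq2. Lsm7, of the ring on U6 RNA and also named after its values were seen, was at 13.1 to 18.4 CPM in control and 19.6 to 53.0 CPM in Sox17-deleted libraries, with a log2 fold change of 1.21 (SE 1.51).

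Other regulators of alternative splicing were above 0 in 10 of 21 tested, with a median of -0.20, and Esrp2 and Khdrbs2 were at 0 in every library. The most abundant, Rbm39 and Mbnl2, had log2 fold changes of 0.30 (SE 0.31) and -0.34 (SE 0.33). The exon junction complex and nonsense-mediated decay, which act on the self-regulating messages of both families, were above 0 in 5 of 14, with a median of -0.29. Rbm8a and Eif4a3, both of the junction complex, had log2 fold changes of -0.42 (SE 0.32) and -0.14 (SE 0.36).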

How the data were processed

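Libraries of ribosome-bound RNA, 8 in all, were grouped by the group named in each title, 4 control and 4 Sox17-deleted hypoxic. The authors deposited raw counts for each gene symbol, as whole numbers. Per the labels' protocols, libraries were made with a QuantSeq 3′ kit, and the submitters' processing notes name Bowtie2, bedtools and the build mm10. Versions, strand, duplicate reads and reads with several matches are not given in the sources used here. In all, 44 duplicate rows were summed, and 14071 symbols had a count.

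Counts were tested in R 4.3.3 with edgeR 4.0.16 (trimmed mean of M values factors, filterByExpr, group alone, quasi-likelihood test), which was also tested on simulated data. P-values were adjusted by Benjamini-Hochberg over all tested genes, and the SE is the log2 fold change divided by the square root of F. Alternatives used DESeq2 1.42.0, limma 3.58.1 (voom), other factors and filters, a replicate block and each library left out. Near-identical copies were found with BLAST 2.17.0 in GENCODE M21 transcripts. Start regions are RefSeq's (GRCm38.p6).

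Members and lists were chosen with earlier results of these data known. Given with every library's value are members that average at least 100 CPM, with groups that do not overlap, or with an unadjusted p under 0.05. From each splicing list the 2 most abundant genes are named, except 1 that is not reported here, and any that is called, or that does not overlap and has an unadjusted p under 0.05. The floors cover counting error only, while the SDs and SEs include the spread between libraries.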

Additional observations from a re-analysis of the deposited data

Results flagged for a closer look

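The level of Srsf2 in deleted 3, at 10.1 CPM, stood apart from the other 3 Sox17-deleted libraries, which were between 156.0 and 185.8 CPM. The gap divided by the whole range of the group was 0.8307, just above Dixon's critical value for 4 values. Chance gives about 1 such case in 20 groups, and this was 1 of 68 groups examined (34 genes in both groups of libraries). Deleted 3 was also the library with the fewest counts, 7000313, and its part in the low value was not tested.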

How the results depend on the processing

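The direction of the log2 fold change was the same in every alternative that gave a value for 20 of 28 members, 10 above 0 and 10 below. DESeq2 called 1 member, Hnrnpab, and the other alternatives called 0. The SR median lay between 0.011 and 0.41 and the hnRNP median between -0.21 and 0.065 when libraries were left out. Without the low-count filter the SR median was -0.10, over 11 genes with Srsf12 among them. With genes of at least 100 CPM only, 2 of 3 SR and 5 of 11 hnRNP members were above 0, since fewer genes were tested. Leaving out each library in turn, the members that did not overlap between the groups numbered 1 to 5. The 5 without deleted 1 were Hnrnpab, Hnrnpk, Hnrnpm, Srsf5 and Srsf6, and the 4 without deleted 3 were Hnrnpab, Srsf11, Srsf2 and Srsf9. Of all tested genes, 13.5% and 10.9% did not overlap in those cases, as fewer libraries make this easier. Signs changed for 8 members, among them Srsf10 (-1.15 to 0.12 when libraries were left out), and the cause was not tested. Hnrnpd was at 0.092 with RLE factors and 0.088 with DESeq2, and Hnrnpul2 at 0.028 and 0.027. Hnrnpf was at -0.080 with limma-voom. Leaving out libraries gave -0.73 to 0.25 for Hnrnpd, -0.51 to 0.32 for Hnrnpul2 and -0.42 to 0.67 for Hnrnpf. It gave -0.15 to 0.35 for Hnrnpc, -0.16 to 0.68 for Hnrnpdl, -0.50 to 0.058 for Hnrnpu and -0.30 to 0.29 for Srsf2.

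Same-numbered libraries did not deviate together (correlations of -0.020 to 0.021). That does not settle whether the numbers pair the samples, which the labels do not state. With a replicate block 0 members were called, Hnrnpf was at -0.34, and the medians were -0.06 for SR and -0.25 for hnRNP genes, beside -0.57 for all genes and, with limma-voom, -0.71. Over all genes edgeR called 0 of 8282, with 424 at an unadjusted p under 0.05, while DESeq2 called 473 of 14071 and limma-voom 44 of 8282. In its other settings edgeR called 17 of 14071 without the filter, 4 of 2052 at 100 CPM or more, and 5 of 9048 without deleted 1. Depth sets a floor of 0.232 to 0.429 CPM (3 counts). The SE of a log2 fold change reached 1.55.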
